A study of Mus musculus with 2 samples.

Results

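Matrix metalloproteinases (MMPs) and their tissue inhibitors (TIMPs) were examined in mRNA of bone marrow-derived monocytic myeloid-derived suppressor cells (M-MDSCs), regulatory cells that restrain T-cell responses. The genes were Mmp8, Mmp9, Mmp12, Mmp13, Mmp14, Mmp19, Mmp25, Timp1, Timp2 and Timp3, taken by symbol, which made 10 of the 34745 genes in the deposited expression data. Bone marrow cells of young adult mice were cultured for 7 days with the myeloid growth factor GM-CSF alone (CHBP- M-MDSC) or with GM-CSF and CHBP, a cyclic helix B peptide derived from erythropoietin that lacks its red-cell activity (CHBP+ M-MDSC). Both groups received GM-CSF, and the labels give no altered allele for either. The strain is C57BL/6 in the labels of CHBP- M-MDSC and C57BL/7 in those of CHBP+ M-MDSC. M-MDSCs (CD11b+Ly6G-, high in Ly6C) were then collected by flow cytometry, a gate meant to leave out Ly6G+ cells, and the comparison asks how the peptide changes their mRNA. Each condition is 1 library without replicates, so that the effect of the peptide and the spread between cultures cannot be told apart, and no test between the conditions was possible. The libraries held 16484504 and 16280466 counted reads.

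MMPs are zinc-dependent endopeptidases. Most are secreted as inactive proenzymes, become active once the propeptide is removed, and cut collagens, elastin, gelatin and other matrix proteins as well as cytokines and surface receptors. TIMPs bind the active site of MMPs and block it, so that the net activity in a tissue depends on both families. In myeloid cells, collagenase and gelatinase are stored in neutrophil granules, whereas macrophages secrete an elastase. These functions act on proteins, which were not measured in these libraries.

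The levels spanned from Mmp8, among the most abundant transcripts of the cells, down to Timp3, the lowest of the 10 genes. Levels are given as FPKM, that is, reads divided by the length of a gene and by the library total, and the 95% intervals beside them are exact Poisson or Clopper-Pearson intervals that cover counting error only. Among all genes, Mmp8 held rank 19 in CHBP- M-MDSC and rank 15 in CHBP+ M-MDSC, and Mmp12 held ranks 91 and 71. Together, both genes took 0.781% of all counted reads in CHBP- M-MDSC (95% interval 0.776% to 0.785%) and 0.878% in CHBP+ M-MDSC (0.874% to 0.883%). The 3 Timp genes took 0.00747% and 0.00800% of reads.

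Mmp8, Mmp12 and Mmp13 lie on chromosome 9 in a cluster of 10 Mmp genes within 427 kb (GRCm38), and nearly all of its reads fell on these 3 genes. The order along the chromosome, with reads in CHBP- and then CHBP+ M-MDSC, began with Mmp13 (1520 and 2074) and Mmp12 (76498 and 81250). No read was counted on Mmp1b, Mmp1a or Mmp7 in either library, which allows a level of up to 0.182 and 0.184 CPM (3 reads, scaled to the library total). Mmp3 had 1 read in each library, Mmp20 had 1 read in CHBP- M-MDSC only, and Mmp10 had 3 reads in CHBP+ M-MDSC only. Mmp8, which follows Mmp10, had 52166 and 61738 reads, and its neighbour Mmp27 had 111 and 174. Thus 6 of the 10 cluster genes stayed at 3 reads or fewer beside Mmp12 and Mmp8.

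**Figure D1:**
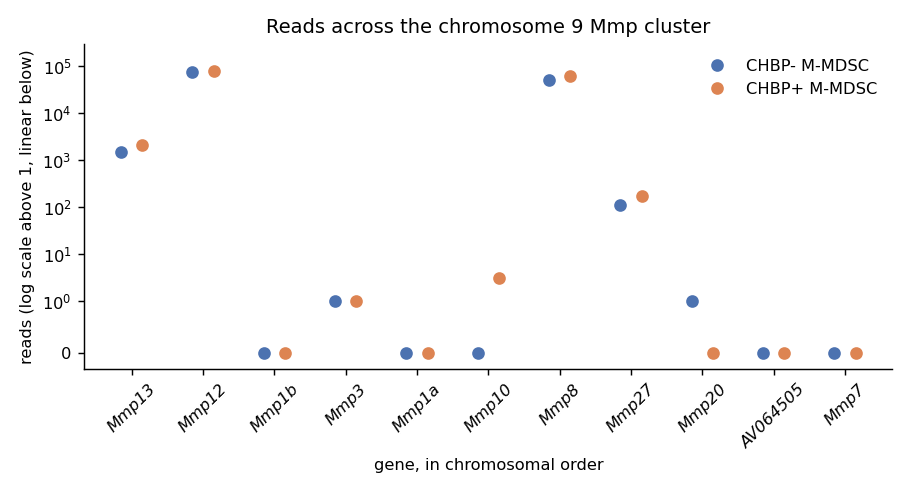
Reads of the 10 Mmp genes of the chromosome 9 cluster and of AV064505, a listed gene between them, in chromosomal order along the x axis. The y axis gives reads per gene, with a log scale above 1 and a linear scale below. Blue points are CHBP- M-MDSC and orange points CHBP+ M-MDSC, with 1 library each. Mmp12 and Mmp8 reached 52166 reads or more in both libraries, whereas Mmp1b, Mmp1a, AV064505 and Mmp7 had none.

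The start sites of these neighbours are shown because most of the genes hold the same promoter motif and yet differ widely in reads. AP-1, a dimer of Fos and Jun proteins, binds TGAGTCA or, on the other strand, TGACTCA, and both forms were searched in windows of 250 bases before to 50 bases after each RefSeq start on GRCm38.p6. Of the 10 cluster genes, 7 held the motif, and 5 of these 7 had 3 reads or fewer in each library. The share of all 32851 windows with the motif was 5.20%, which counts windows and not genes. Counted by window, 5 of the 8 windows of the 7 cluster genes that are not members held the motif. The 37 bases around each motif are given 5′ to 3′ on the strand of the gene, with the motif in capitals. Their positions are chr9:7272464-7272500 (+) for Mmp13, chr9:7347315-7347351 (+) for Mmp12, chr9:7388098-7388134 (-) for Mmp1b, chr9:7445761-7445797 (+) for Mmp3, chr9:7464053-7464089 (+) for Mmp1a, chr9:7502264-7502300 (+) for Mmp10 and chr9:7692012-7692048 (+) for Mmp7.
Mmp13: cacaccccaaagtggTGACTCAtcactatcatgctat
Mmp12: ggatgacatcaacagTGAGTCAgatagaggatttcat
Mmp1b: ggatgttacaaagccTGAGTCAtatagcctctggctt
Mmp3: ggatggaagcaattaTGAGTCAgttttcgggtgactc
Mmp1a: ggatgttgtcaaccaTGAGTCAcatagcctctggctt
Mmp10: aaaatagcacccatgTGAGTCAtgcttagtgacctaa
Mmp7: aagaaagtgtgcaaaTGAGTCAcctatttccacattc

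In these lines, the motif of Mmp13 read TGACTCA and the other 6 read TGAGTCA. The motif of Mmp12 lies before the downstream of 2 RefSeq starts, and the upstream window held none. Mmp8, Mmp27 and Mmp20 held no match in their windows. A match is a run of letters and not a measured binding site, and these data do not show whether AP-1 bound there.

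The promoters of Mmp8 and Mmp13 are given whole, as the members on the cluster with the highest level and with the highest ratio between the libraries among the 10 genes, and that of Timp1 as the inhibitor lowest in CHBP+ relative to CHBP- M-MDSC. All windows are RefSeq sequence on GRCm38.p6, on the + strand, 5′ to 3′. Capitals mark the AP-1 motif, the TATA motif (TATAAA on the strand of the gene) and the GC box (GGGCGG or its complement CCGCCC). They cover chr9:7558179-7558478 for Mmp8, chr9:7272264-7272563 for Mmp13 and chrX:20869916-20870215 for Timp1.
Mmp8: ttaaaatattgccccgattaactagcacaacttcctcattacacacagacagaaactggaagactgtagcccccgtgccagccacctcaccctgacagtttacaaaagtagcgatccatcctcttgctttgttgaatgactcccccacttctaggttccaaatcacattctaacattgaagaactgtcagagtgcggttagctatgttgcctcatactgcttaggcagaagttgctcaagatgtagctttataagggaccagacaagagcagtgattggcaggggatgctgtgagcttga
Mmp13: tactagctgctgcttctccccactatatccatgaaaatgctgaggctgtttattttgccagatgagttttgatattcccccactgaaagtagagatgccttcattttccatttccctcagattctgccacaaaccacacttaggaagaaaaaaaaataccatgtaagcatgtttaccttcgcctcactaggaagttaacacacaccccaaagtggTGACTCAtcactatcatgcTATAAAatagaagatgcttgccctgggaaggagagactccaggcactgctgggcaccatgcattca
Timp1: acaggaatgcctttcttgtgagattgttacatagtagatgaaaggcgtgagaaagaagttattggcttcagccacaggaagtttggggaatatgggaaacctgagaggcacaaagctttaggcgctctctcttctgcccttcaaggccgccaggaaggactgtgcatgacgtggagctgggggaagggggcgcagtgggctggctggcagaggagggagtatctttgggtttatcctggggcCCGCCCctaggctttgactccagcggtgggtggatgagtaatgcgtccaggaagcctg

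The window of Mmp13 held an AP-1 motif whose first base is at -35 and a TATA motif at -16 relative to the start. The window of Mmp8 held no match to any of the 3 motifs. The window of Timp1 held a GC box at -8, and so did those of Timp2 at -37 and, with a pair of boxes each, Timp3, Mmp14 and Mmp25. All 5 members outside the cluster that matched a window thus held a GC box, against 35.7% of all windows, while no window of the cluster held one. TATAAA was found in 8 of the 10 cluster genes, in no member outside the cluster, and in 8.32% of all windows. Counted by window, 6 of the 8 windows of the 7 cluster genes that are not members held it. Windows were matched for 8 of the 10 members.

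The collagenases came first by function. Mmp8 (ENSMUSG00000005800, chromosome 9 from 7558429 to 7568486), the neutrophil collagenase that cuts fibrillar collagen, had a level of 1290 FPKM in CHBP- M-MDSC (1279 to 1301) and 1546 FPKM in CHBP+ M-MDSC (1534 to 1558). Scaled to the library total (CPM), its reads were 1.20-fold higher in CHBP+ M-MDSC, with a Clopper-Pearson interval from 1.18 to 1.21. Mmp13 (ENSMUSG00000050578, chromosome 9 from 7272514 to 7283333), the interstitial collagenase of rodents, had 34.5 FPKM in CHBP- M-MDSC and 47.6 FPKM in CHBP+ M-MDSC. It was 1.38-fold higher by CPM (1.29 to 1.48), which was the largest ratio among the 10 genes. Both collagenases were thus higher in CHBP+ M-MDSC by more than counting error, and the interval of Mmp13 lay above that of Mmp8.

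By CPM the elastase was higher and the gelatinase lower in CHBP+ M-MDSC. However, the log2 ratio of the elastase turned to -0.02 once a trend with gene length was removed at the deposited length. Mmp12 (ENSMUSG00000049723, chromosome 9 from 7344381 to 7369499), the macrophage elastase, had 466 FPKM in CHBP- M-MDSC and 501 FPKM in CHBP+ M-MDSC. Its CPM ratio was 1.08 (1.06 to 1.09), a small difference measured on the most reads of the 10 genes. Mmp9 (ENSMUSG00000017737, chromosome 2 from 164940780 to 164955850), gelatinase B, had 7172 reads in CHBP- M-MDSC against 6378 in CHBP+ M-MDSC. Its level was 110 and 99.3 FPKM. Its CPM ratio was 0.900 (0.870 to 0.931), so that it was lower in CHBP+ M-MDSC, the only one of the 7 Mmp genes to be so. As a result, the level of Mmp8 was 11.7-fold that of Mmp9 in CHBP- M-MDSC and 15.6-fold in CHBP+ M-MDSC.

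Lcn2, which encodes a lipocalin, was on the list of genes for docking, induction and clearance of MMPs and was singled out after its values were seen. It had 133 FPKM in CHBP- M-MDSC and 88.6 FPKM in CHBP+ M-MDSC. Its log2 ratio was -0.58 and its CPM ratio 0.665 (0.645 to 0.686). Lcn2 and Mmp9 were both lower in CHBP+ M-MDSC, Lcn2 by more than Mmp9.

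Membrane-bound and other MMPs were all higher in CHBP+ M-MDSC. Mmp14 (ENSMUSG00000000957, chromosome 14 from 54431612 to 54441265), the membrane type 1 enzyme that cuts collagen at the cell surface and activates progelatinase A, had 3053 and 3473 reads. Its level was 32.1 FPKM in CHBP- M-MDSC and 37.0 FPKM in CHBP+ M-MDSC, with a CPM ratio of 1.15 (1.10 to 1.21). Mmp25 (ENSMUSG00000023903, chromosome 17 from 23629458 to 23645269), a leukocyte enzyme anchored to the membrane by a lipid, had 503 and 565 reads. Its level was 9.05 FPKM and 10.3 FPKM, and its interval of 1.01 to 1.29 around a CPM ratio of 1.14 only just left out 1. Mmp19 (ENSMUSG00000025355, chromosome 10 from 128790953 to 128800824), a secreted enzyme with basement membrane substrates, had 7525 and 8894 reads. Its level was 134 FPKM in CHBP- M-MDSC and 160 FPKM in CHBP+ M-MDSC, with a CPM ratio of 1.20 (1.16 to 1.23).

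The inhibitors lay at the lower end of the levels, with Timp2 above Mmp25 by FPKM in both libraries. Timp2 (ENSMUSG00000017466, chromosome 11 from 118301069 to 118355740), which inhibits MMPs and also links progelatinase A to the membrane enzyme encoded by Mmp14, had 718 reads in CHBP- M-MDSC against 752 in CHBP+ M-MDSC. Its level was 10.6 and 11.3 FPKM, and its CPM ratio of 1.06 had an interval from 0.956 to 1.18. Timp1 (ENSMUSG00000001131, chromosome X from 20870166 to 20874735), the inducible inhibitor that binds progelatinase B, had 171 and 145 reads. Its level was 7.50 and 6.44 FPKM, and its CPM ratio of 0.859 had an interval from 0.683 to 1.08, with a log2 ratio of 0.01 once the length trend was removed. For both genes, a difference between the libraries was not detectable at this depth.

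Timp3 (ENSMUSG00000020044, chromosome 10 from 86300372 to 86349506), which binds to the matrix and also inhibits the sheddase encoded by Adam17, had 342 reads in CHBP- M-MDSC against 405 in CHBP+ M-MDSC. Its level was 2.30 FPKM (2.06 to 2.55) and 2.75 FPKM (2.49 to 3.04), the lowest of the 10 genes in both libraries. The CPM ratio was 1.20, with an interval from 1.04 to 1.39. Among the inhibitors, Timp3 alone differed between the libraries by more than counting error.

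By FPKM, the order of the 10 genes was the same in both libraries. It ran from Mmp8 through Mmp12, Mmp19, Mmp9, Mmp13, Mmp14, Timp2, Mmp25 and Timp1 to Timp3. In CHBP- M-MDSC the counting intervals of Mmp13 and Mmp14 overlapped, as did those of Mmp25 and Timp1. Those of Timp2 and Mmp25 nearly met, with a lower limit of 9.88 FPKM for Timp2 and an upper limit of 9.87 FPKM for Mmp25. In CHBP+ M-MDSC only the intervals of Timp2 and Mmp25 overlapped, and Mmp13 was 1.29-fold above Mmp14 by FPKM against 1.07-fold in CHBP- M-MDSC, an order that turned in both libraries with the length of the longest coding transcript (71.3 and 82.1 for Mmp14, 34.5 and 47.6 for Mmp13).

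**Figure D2:**
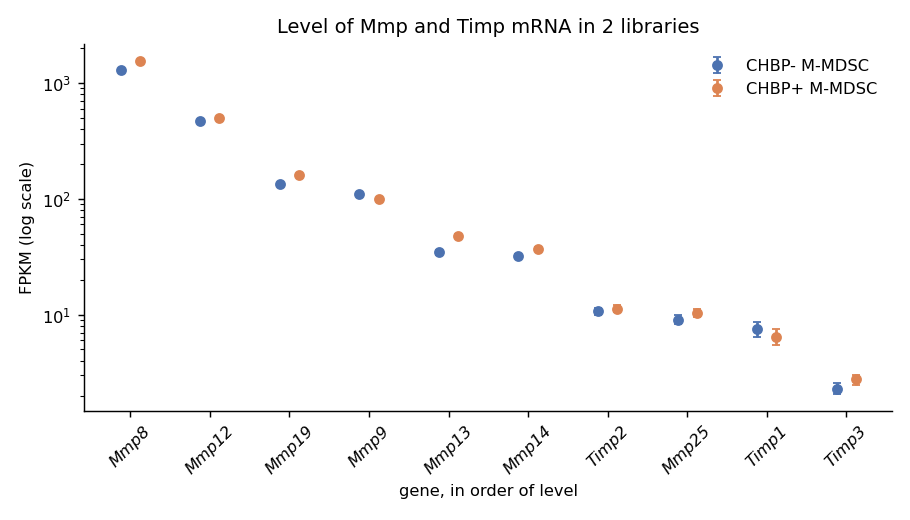
Level of each of the 10 genes, in FPKM on a log scale (y axis), in order of level (x axis). Blue points are CHBP- M-MDSC and orange points CHBP+ M-MDSC, with 1 library each, and bars are 95% Poisson intervals for counting error, smaller than the point for the higher genes. The order was the same in both libraries, from Mmp8 at 1290 and 1546 FPKM to Timp3 at 2.30 and 2.75 FPKM.

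Summed by family, the 7 Mmp genes had 2076 FPKM in CHBP- M-MDSC and 2402 FPKM in CHBP+ M-MDSC, of which Mmp8 and Mmp12 made 84.6% and 85.2%. The 3 Timp genes had 20.4 and 20.5 FPKM. The enzymes therefore exceeded the inhibitors 102-fold in CHBP- M-MDSC and 117-fold in CHBP+ M-MDSC. Of the reads, those of the Mmp genes were 1.12-fold higher by CPM in CHBP+ M-MDSC (1.11 to 1.13), and those of the Timp genes were 1.07-fold higher with an interval from 0.990 to 1.16. The summed values are mRNA levels and say nothing of how much enzyme was active.

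The level of Mmp12 depended on which length was used. The deposited FPKM of Mmp12 rests on a length of 9954 bases, whereas its longest coding transcript in the GENCODE M1 annotation has 3607 bases. For Mmp8 both lengths were 2453 bases. Scaled to the longest coding transcript, an alternative added after the data were seen, Mmp12 had a level of 1287 on the FPKM scale in CHBP- M-MDSC and of 1384 in CHBP+ M-MDSC. Mmp8 was then 1.00-fold and 1.12-fold the level of Mmp12, instead of 2.77-fold and 3.08-fold. With the same scaling the enzymes exceeded the inhibitors 106-fold and 121-fold. The CPM ratio of a gene between the libraries does not change with its length. A ratio taken after 1 FPKM was added, or with the length trend removed, does depend on it.

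None of the 10 genes reached the 1.5-fold threshold that the study used. The log2 ratio of CHBP+ over CHBP- M-MDSC, taken after 1 FPKM was added to each value, ranged from -0.19 for Timp1 to 0.46 for Mmp13, with 0 members at least 1.5-fold higher and 0 at least 1.5-fold lower. Of the 10948 genes that reached 1 FPKM in either library, 3.42% were at least 1.5-fold higher and 2.89% at least 1.5-fold lower. By log2 ratio, 6.55% of these genes were at least as high as Mmp13 and 16.5% at least as high as Mmp8. The median log2 ratio was 0.18 over the 10 members, all of which passed 1 FPKM, against -0.03 over the 10948 genes. Of the members, 8 were above 0, against 46.3% of the genes.

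By counting error alone, 7 of the 10 members were higher and 1 was lower in CHBP+ M-MDSC, that is, their 95% interval left out a ratio of 1. Over the 14162 genes with at least 10 reads, 24.1% were higher and 25.1% were lower by the same rule. The members hold more reads than most genes, which narrows their intervals, and the rule has no adjustment for the number of genes.

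**Figure D3:**
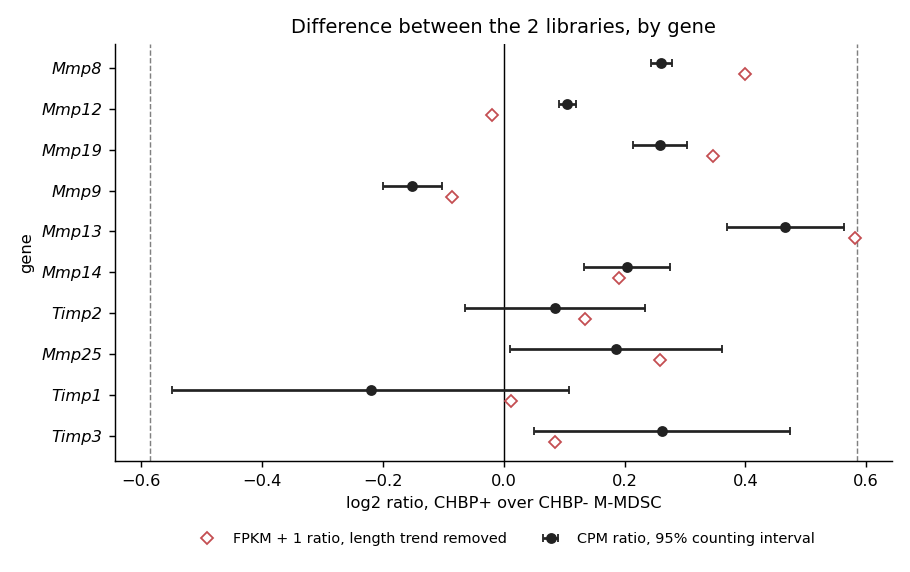
Log2 ratio of CHBP+ over CHBP- M-MDSC (x axis) for each gene (y axis), with 1 library per condition. Black points are ratios of CPM with 95% Clopper-Pearson intervals for counting error, open diamonds are ratios of FPKM + 1 after the trend with gene length was removed, and dashed lines mark 1.5-fold. Mmp9 is below 0 by more than counting error, and no gene crosses a dashed line.

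Log2 ratios in these libraries rose with gene length, and this bore on some members. Over the 10948 genes, length, as the deposited counts and FPKM give it, and log2 ratio had a Spearman's rho of 0.478, as a description across genes that share both libraries. The median log2 ratio was -0.30 in the 1094 shortest genes and 0.23 in the 1094 longest. With the trend removed by a polynomial of degree 3, Mmp8 (2453 bases) went from 0.26 to 0.40 and Mmp13 (2675 bases) from 0.46 to 0.58, just short of the 0.585 that stands for 1.5-fold. Mmp12 went from 0.10 to -0.02 and Timp1 from -0.19 to 0.01, each with a change of sign. Trend-removed values use the deposited length, which for Mmp12 is 9954 bases against 3607 in its longest coding transcript. The lengths also differed for Timp1 (1384 and 883 bases), Mmp9 (3944 and 3175), Mmp14 (5773 and 2597), Timp3 (9033 and 4722) and Timp2 (4092 and 3709). The trend was not removed at the coding transcript lengths. The signs of Mmp12, Timp1 and the other members are therefore given for the deposited length only. Mmp9 stayed lower at -0.09, Mmp19 was at 0.35, Mmp25 at 0.26, Mmp14 at 0.19, Timp2 at 0.14 and Timp3 at 0.09.

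The median over the members was 0.16 with the trend removed. At that setting, 2.94% of the genes were at least as high as Mmp13 and 6.82% at least as high as Mmp8. The SD of all genes around the trend was 0.303 on the log2 scale, larger than the trend-removed value of 7 of the 10 members. The cause of the length trend was not tested, and it cannot be told apart from the treatment with 1 library per condition.

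**Figure D4:**
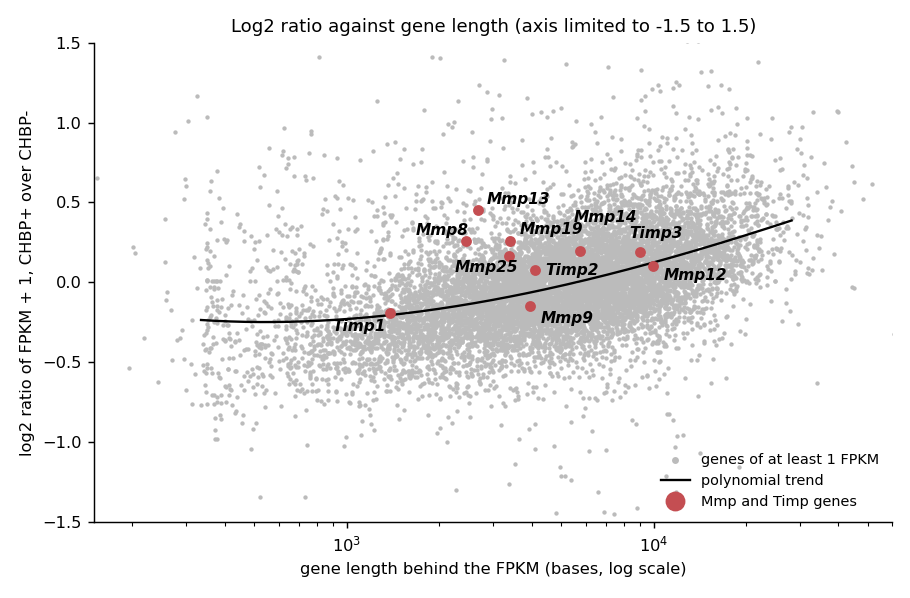
Log2 ratio of FPKM + 1, CHBP+ over CHBP- M-MDSC (y axis), against the gene length behind the FPKM in bases (x axis, log scale). Grey points are genes of at least 1 FPKM, of which 66 lie outside the axes, the line is the polynomial trend, and red points are the 10 Mmp and Timp genes. Mmp13 and Mmp8 lie above the line, Mmp12 and Timp1 lie on it, and Mmp9 lies below it.

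Several members share their locus with other genes, and the counting could have split reads between them. Timp1 lies within Syn1, and Timp3 within Syn3, on the opposite strand to these synapsin genes. The reads on Syn1 were 93 and 89, and Syn3 had 14 and 19. The end of Mmp19 overlaps Tmem198b (260 and 252 reads) on the opposite strand, and Mmp12 overlaps Mmp1b, which had no reads. Timp2 overlaps BC100451 (0 and 2 reads) on the same strand. Whether strand was used in the counting is not given in the sources used here. With the reads of overlapping genes added, each member's log2 ratio stayed within its counting interval.

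Other genes of the system were described from lists made up by function. Calls of 1.5-fold in these lists were made after 1 FPKM was added to each value, which lowers the ratio of genes of low level. Of 16 further Mmp genes, 2 reached 1 FPKM and neither was called. Mmp2, gelatinase A, which Mmp14 and Timp2 activate together, had 3.47 FPKM in CHBP- M-MDSC and 2.71 FPKM in CHBP+ M-MDSC (174 and 134 reads), with a log2 ratio of -0.27 and a CPM ratio of 0.780 (0.618 to 0.982). Mmp27 of the chromosome 9 cluster had 2.05 and 3.25 FPKM, a log2 ratio of 0.48. By CPM, without the added value, its ratio was 1.59 (1.24 to 2.03), past 1.5-fold. Mmp28, epilysin, stayed under 1 FPKM at 0.405 and 0.338.

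None of the 6 genes on a list of further inhibitors and related genes reached 1 FPKM. Reck, a membrane-anchored inhibitor, had 37 and 47 reads, and Tfpi2 had 11 and 5. Pcolce, on the list although it is an enhancer of procollagen processing, had 7 and 3. Timp4, outside the rule for named genes, had 1 read in CHBP+ M-MDSC and none in CHBP- M-MDSC. Among the genes listed here, MMP inhibitor mRNA was thus nearly all that of Timp1, Timp2 and Timp3.

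The ADAM proteases, membrane enzymes that shed surface proteins, had 6 of 10 genes above 1 FPKM, with none 1.5-fold apart and a median log2 ratio of 0.25. Adam8, a leukocyte member, had 118 and 145 FPKM, Adam10 had 38.8 and 46.9 FPKM, and Adam9 had 24.9 and 31.4 FPKM, with CPM ratios of 1.23, 1.21 and 1.26. Of 12 ADAMTS proteases, 2 passed 1 FPKM. Adamts6 was at least 1.5-fold higher, with 33 reads in CHBP- M-MDSC against 109 in CHBP+ M-MDSC. Its level was 0.415 and 1.39 FPKM, so that it passed 1 FPKM only through the library where it was higher. Over all genes that reached 1 FPKM, 3.42% were at least 1.5-fold higher. Adamts10 had 3.00 and 2.79 FPKM, and Adamts4 had 7 and 12 reads.

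Among 10 genes of plasminogen activation, the serine protease system that can activate pro-MMPs, 4 passed 1 FPKM and none was 1.5-fold apart. Serpinb2, an inhibitor of plasminogen activators, had 275 and 347 FPKM, Plaur, the urokinase receptor, had 165 and 154 FPKM, and Plau, urokinase, had 44.6 and 46.2 FPKM. Their log2 ratios were 0.34, -0.10 and 0.05.

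Proteins that dock, process or clear MMPs, a list with 13 entries above 1 FPKM, included 4 entries at least 1.5-fold higher and none at least 1.5-fold lower after 1 FPKM was added. Over the 10948 genes that reached 1 FPKM, these shares were 3.42% and 2.89%. By CPM, Lcn2 at 0.665 was also past 1.5-fold. Itgb3, a chain of the vitronectin receptor that can hold gelatinase A at the cell surface, had 522 and 1815 reads, a log2 ratio of 1.58. Its partner Itgav had 337 and 646 reads, a log2 ratio of 0.64 that became 0.44 with the length trend removed. Lrp1, the endocytic receptor that clears MMPs and TIMPs, had 4444 and 7833 reads, a log2 ratio of 0.79 that became 0.48. Both thereby fell short of 1.5-fold, whereas Itgb3 was still at 1.48. Itgam is listed under a pair of identifiers that overlap, at 0.56 and 0.61, of which the second passed 1.5-fold, so that its reads are uncertain. The most abundant of the list were Cd63, a tetraspanin that binds Timp1, with 589 and 543 FPKM, and Itgb2, with 350 and 388 FPKM.

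Of 16 substrates of the matrix, 6 passed 1 FPKM and 2 were at least 1.5-fold higher after 1 FPKM was added, neither of them once the length trend was removed. The share at least 1.5-fold higher over all genes that reached 1 FPKM was 3.42%, before removal of the trend. Fn1, fibronectin, had 62.5 and 112 FPKM, a log2 ratio of 0.84 that was 0.57 with the trend removed, and Vcan, versican, had 6.88 and 12.2 FPKM, a log2 ratio of 0.75 that was 0.45. Spp1, osteopontin, had 1253 and 1206 FPKM, and Thbs1, thrombospondin, 1114 and 1458 FPKM. Lamc1, a laminin chain outside the rule for named genes, had 2.32 and 3.90 FPKM, a log2 ratio of 0.56 but a CPM ratio of 1.68 (1.48 to 1.91), past 1.5-fold. None of the lists was tested as a set.

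**Figure D5:**
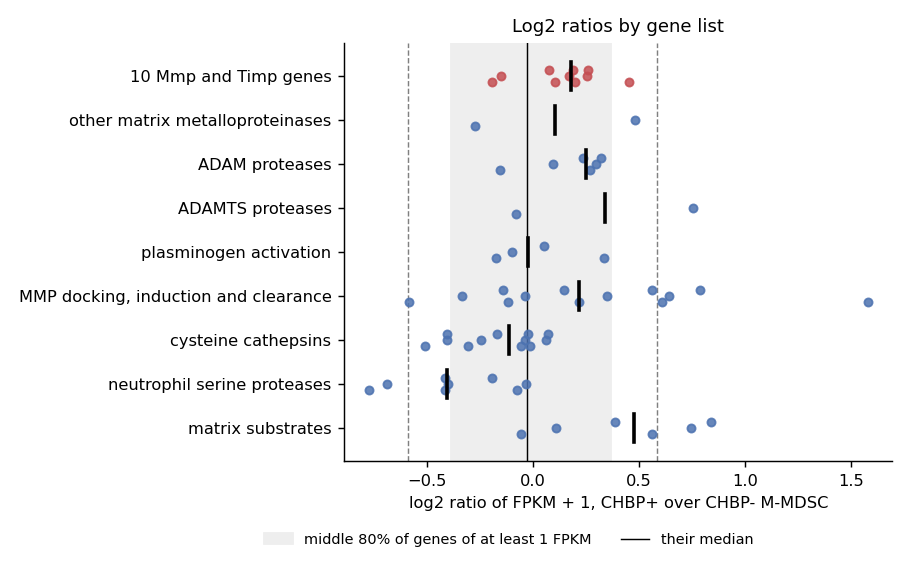
Log2 ratio of FPKM + 1, CHBP+ over CHBP- M-MDSC (x axis), of every gene of at least 1 FPKM in each list (y axis), with a black bar at the median of the list. Red points are the 10 Mmp and Timp genes, the grey band is the middle 80% of all genes of at least 1 FPKM, the thin line their median and dashed lines 1.5-fold. The members lie between -0.19 and 0.46, Itgb3 lies at 1.58, and the neutrophil serine protease list has its median at -0.41.

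The labelled cell type was set beside its markers. Itgam, Lyz2 (9756 and 7830 FPKM) and Csf1r (113 and 126 FPKM) of the monocyte list were abundant, and Ccr2 had 3.29 and 3.84 FPKM. Ly6c2 had 56.9 FPKM in CHBP- M-MDSC and 34.0 FPKM in CHBP+ M-MDSC. Its log2 ratio was -0.73, past 1.5-fold, and -0.68 with the length trend removed. Ly6c1 had 3.70 and 2.91 FPKM. The median log2 ratio of the monocyte list was 0.16, and 0.06 with the length trend removed. Since Mmp8, Mmp9 and Mmp25 are also neutrophil genes, the neutrophil markers, of which 8 of 8 reached 1 FPKM, were summed, with 1946 FPKM in CHBP- M-MDSC and 1419 FPKM in CHBP+ M-MDSC. Most of that sum was S100a9 and S100a8, which monocytes also express, and Ly6g had 2.19 and 2.12 FPKM and Camp 1.76 and 1.38 FPKM. The median log2 ratio of the neutrophil markers was -0.20, and 0.04 with the length trend removed. In bulk libraries, fewer cells of a type and less RNA per cell cannot be told apart.

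Mmp13, Mmp14 and Timp3 are also expressed by stromal cells. The 9 stromal markers summed to 2.67 and 2.94 FPKM, with 1 of 9 (Pdgfrb) at 1 FPKM or more, Pdgfra at 2 and 0 reads and Postn at 0 and 7. Of 7 osteoclast markers, 6 reached 1 FPKM, Calcr had no reads, and the sum was 158 and 164 FPKM, while 7 of 7 macrophage markers reached 1 FPKM and summed to 474 and 503 FPKM. Of the dendritic cell markers 4 of 7 reached 1 FPKM, with a sum of 129 and 160 FPKM and Xcr1 at 0 reads. Of the mast cell or basophil markers 6 of 7 did, with a sum of 298 and 245 FPKM. Among them, Ms4a2 was at least 1.5-fold higher in CHBP+ M-MDSC (182 and 446 reads). Mcpt8 was at least 1.5-fold lower (650 and 416 reads), with a log2 ratio of -0.61 that became -0.37 with the length trend removed. Of the T-cell markers 2 of 7 reached 1 FPKM, with a sum of 5.93 and 4.89 FPKM. The part of other cell types in the levels of the members was not tested.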

How the data were processed

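mRNA of CHBP- and CHBP+ M-MDSC was sequenced with single-end reads, 1 library per condition, and the groups were taken from the labels. The labels state that the authors trimmed adapters and low-quality ends and removed short and ribosomal reads with Seqtk. The methods name TopHat2, HT-seq and mm9, whereas the submitters' processing notes name HISAT2 2.0.4, Cufflinks 2.1.1 and GRCm38. All 10 members overlapped their RefSeq gene on GRCm38.p6 at the deposited coordinates. The deposited counts are raw reads per gene, summing to 16484504 in CHBP- and 16280466 in CHBP+ M-MDSC. The deposited FPKM were scaled by the authors to gene length and total counts only, so that gene length was recovered from both columns.

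Log2 ratios used a pseudocount of 1 FPKM, and genes reaching 1 FPKM in either library formed the background. The study names DESeq, which was not run, since single libraries give no estimate of replicate spread. Exact 95% Clopper-Pearson intervals of the CPM ratio and Poisson intervals of levels cover counting error only, since reads are not independent molecules. The alternatives tried were CPM, a pseudocount of 0.1, a minimum of 5 FPKM or none, trimmed mean of M values (edgeR 4.0.16, R 4.3.3), median-of-ratios size factors, median centring, removal of the length trend, summing overlapping genes and a fold threshold of 2. The longest coding transcript in GENCODE M1 gave lengths by identifier. Promoter windows came from RefSeq. All members were named, and of each list the 3 genes of highest mean FPKM and those 1.5-fold apart. Single marker genes were chosen for naming after their values were seen. Tables were made with Python 3.11.15, numpy 2.4.6, pandas 2.3.3, scipy 1.17.1 and matplotlib 3.10.9, and the functions were tested on simulated data. The members, lists and alternatives were chosen with earlier results of these data known.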

Additional observations from a re-analysis of the deposited data

How the results depend on the processing

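Under each alternative run, 0 of the members were at least 1.5-fold higher and 0 at least 1.5-fold lower, and at a fold threshold of 2 likewise. Their median log2 ratio ranged from 0.16 with the length trend removed to 0.21 with the median of all genes set to 0. The log2 ratios of all members stayed within their counting intervals with a pseudocount of 0.1, CPM, trimmed mean of M values, median-of-ratios size factors, no filter and overlapping genes summed. At 5 FPKM, 9 members remained and their values are unchanged by construction. With the median set to 0, 8 of 10 stayed within the interval, and with the length trend removed 5 of 10 did. In the latter, Mmp12 (-0.02) and Timp1 (0.01) changed sign by the subtraction of the trend at the deposited lengths. With lengths of the longest coding transcript, chosen after the data were seen, the order of levels was no longer the same in both libraries. Mmp9 stood above Mmp19 in CHBP- M-MDSC (137 and 134), and Mmp14 above Mmp13 in both libraries. Timp1 stood above Timp2 (11.75 and 11.74) and Mmp25 (9.05) in CHBP- M-MDSC. In CHBP+ M-MDSC, Timp1 (10.1) was below Timp2 (12.5) and Mmp25 (10.3). No counting interval was computed for these levels, so the order of the close pairs is uncertain. No paired analysis was possible because each condition has a single library, which also means that no replicate could be left out. Depth limits Timp1, with 171 and 145 reads, most.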

Other observations

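Cysteine cathepsins, lysosomal proteases that can also degrade matrix, were abundant. All 12 entries of the list, which includes their cystatin inhibitors, passed 1 FPKM and none was 1.5-fold apart after 1 FPKM was added. Ctsw, with 23 and 10 reads, had a CPM ratio of 0.440 (0.187 to 0.962), past 1.5-fold. Its level was 1.13 FPKM in CHBP- M-MDSC and 0.499 FPKM in CHBP+ M-MDSC. It thus passed 1 FPKM only through the library where it was higher. Ctsl had 1008 and 984 FPKM in CHBP- and CHBP+ M-MDSC, Ctss 979 and 969 FPKM, and Ctsz 781 and 659 FPKM. The cystatins on the list were lower in CHBP+ M-MDSC, with log2 ratios of -0.40 for Cstb, -0.40 for Cst3 and -0.31 for Cst7, which were -0.15, -0.24 and -0.08 once the length trend was removed. The cystatins and Ctsw were singled out after their values were seen.

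The list of neutrophil serine proteases also holds inhibitors, among them Stfa1 and Stfa2 of the cystatin family. All 8 of its entries above 1 FPKM had log2 ratios below 0, with 2 at least 1.5-fold lower and a median of -0.41. Of all genes that reached 1 FPKM, 46.3% were above 0 and 2.89% at least 1.5-fold lower. The counting intervals of Stfa1 (0.533 to 1.02), Stfa2 (0.639 to 1.39) and Prss57 (0.761 to 1.22), named after their values were seen, included a ratio of 1. With the length trend removed the median was -0.17, Stfa2 turned to 0.17, and Elane at -0.45 was no longer 1.5-fold lower while Prtn3 at -0.66 was. Prtn3, proteinase 3, had 33.0 and 18.9 FPKM, and Elane, neutrophil elastase, 75.2 and 46.3 FPKM. Slpi, an inhibitor of elastase, had 454 and 340 FPKM, Ctsg, cathepsin G, 210 and 158 FPKM, and Serpinb1a 73.1 and 63.8 FPKM. The granule collagenase Mmp8 had a log2 ratio of 0.26 in the same libraries, and the difference between Mmp8 and these genes was not tested between conditions.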
